A study of Triticum aestivum with 8 samples.

Results

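Windows of 1 Mb in which no accessible chromatin region (ACR) was listed at any of 4 stages of wheat grain development were the regions under study. Each chromosome was cut into such windows from its first base, and a window was kept as empty if it held the midpoint of no ACR in any of the 4 lists. Chromosome 1B below 240 Mb and all of 4B were left out, which left 13139 windows on 20 chromosomes. Of these, 430 windows were empty (3.27%). The windows were thus chosen by their number of ACR midpoints in these same lists, so that their number, their runs and their place are given as a description and not as a test result. The name held at the level of single bases as well, since 0 of the 430 windows were touched by an ACR whose midpoint lay in a neighbouring window.

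The ACRs came from ATAC-seq, in which the transposase Tn5 cuts and tags DNA that is not wrapped in nucleosomes. The 2 early stages, DAP5 and DAP9, were endosperm freed of the embryo, and the 2 later ones, DAP15 and DAP20, were seed (DAP, days after pollination; the labels count from fertilization). All samples came from the cultivar AK58, also written AiKang58, with 2 sample records and 1 list of ACRs per stage. Stage and tissue cannot be told apart between DAP9 and DAP15, and there was no replicate list to measure the error of a stage. From DAP5 to DAP20 the lists held 108846, 101620, 105578 and 104407 ACRs, of which 97148 to 104161 fell in the windows used. Sequencing depth is unknown here, so that an empty window is one in which no ACR passed the calling steps and was not shown to be closed.

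The genome of bread wheat combines 3 related subgenomes, named A, B and D, and consists mostly of transposable elements. Genes are dense towards the chromosome ends and sparse around the centromeres, where recombination is rare. ACRs often mark promoters and enhancers, the sites where transcription factors bind, and in large plant genomes part of them lie far from any gene. All coordinates are those of the lists, whose genome build was not stated.

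Empty windows were more numerous than windows just above the threshold. Windows with exactly 1 midpoint over the 4 lists numbered 207, with 2 midpoints 195 and with 3 midpoints 224, all below the 430 with none. The median window held 22 midpoints over the 4 lists, with quartiles of 11 and 40. Of the 207 windows with 1 midpoint, 31 owed it to the DAP5 list, 28 to DAP9, 79 to DAP15 and 69 to DAP20. The seed lists thus supplied the sole ACR more often than the endosperm lists.

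Read list by list, 1008 of the 13139 windows had no midpoint at DAP5 (7.67%) and 947 at DAP9 (7.21%), while 823 had none at DAP15 (6.26%) and 945 at DAP20 (7.19%). The DAP15 list left the fewest windows empty. It had fewer than DAP5 on 20 of 20 chromosomes, fewer than DAP9 on 16 and fewer than DAP20 on 15. Of the windows empty in a list, those empty in every list made up 42.7, 45.4, 52.2 and 45.5% from DAP5 to DAP20. In all, 11540 windows had a midpoint in every list, 590 lacked it in 1 list, 324 in 2 lists and 255 in 3 lists. The number of windows thus fell up to 3 lists and was higher again at 4.

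Empty windows that were limited to the lists of a tissue, and so also to its stages, were fewer than those shared by all stages. In 120 windows (0.913% of 13139), no midpoint was found in either endosperm list while both seed lists had one. The opposite held in 61 windows (0.464%). Counting windows with a midpoint in at least 1 list of the other tissue, these numbers were 306 and 130. They were part of the 736 windows empty in both endosperm lists and of the 560 empty in both seed lists. More windows were thus empty in the endosperm lists alone than in the seed lists alone. This order rests on lists that include narrow ACRs. With ACRs of at least 350 bp, the lists from DAP5 to DAP20 left 1083, 952, 823 and 1357 windows empty, the most at DAP20. The counts by tissue were not repeated under that minimum.

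To ask how firmly a window stayed empty in a list that had no part in its choice, windows were chosen as empty in 3 lists and then read in the list left out. At DAP5, 430 of 469 such windows held no ACR midpoint (91.7%, Wilson 95% interval 88.8 to 93.9%), against 45.2% (42.0 to 48.5%) of the 878 windows with 1 to 3 midpoints in the other lists. At DAP9 the share was 93.5% (430 of 460, 90.8 to 95.4%), against 43.9% (40.7 to 47.2%) of 895 sparse windows. At DAP15 it was 81.4% (430 of 528, 77.9 to 84.5%), against 29.3% (26.5 to 32.3%) of 943, and at DAP20 83.0% (430 of 518, 79.5 to 86.0%), against 34.9% (31.9 to 38.1%) of 896. In all 4 lists the share in windows empty elsewhere exceeded that in sparse windows on 20 of 20 chromosomes. These shares stood far above the 6.26 to 7.67% of all windows that were empty in a single list. The same 430 windows were counted as empty in each case, so that the shares differ only by the 39, 30, 98 and 88 windows that a list alone filled, from DAP5 to DAP20. The lists also share a genome and calling steps, so that the shares are a description and no independent check. The intervals cover counting error only, and neighbouring windows are not independent.

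**Figure D1:**
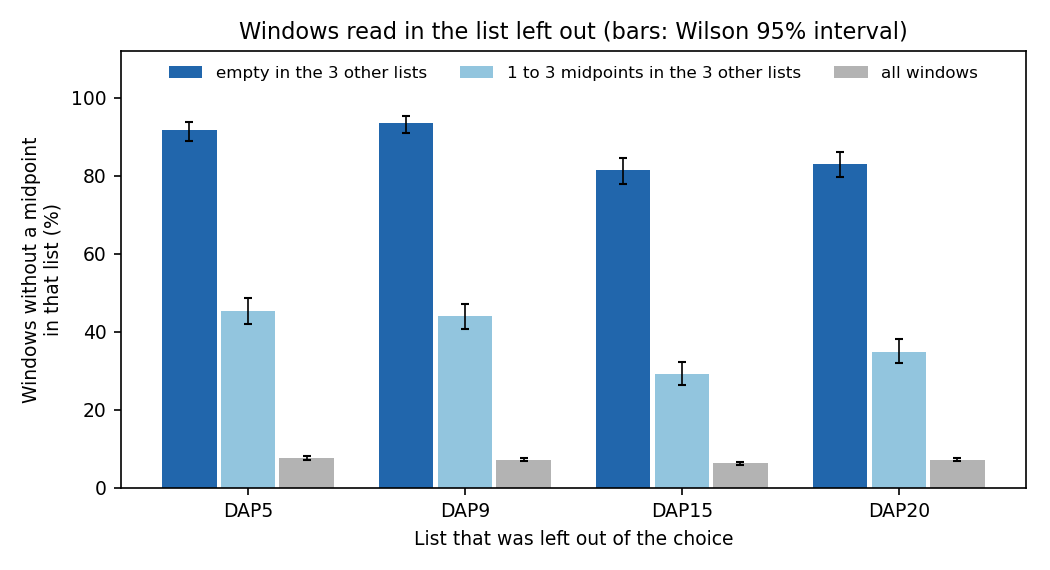
Share of windows without a midpoint in the list that was left out of the choice (y axis, %), for windows empty in the 3 other lists, windows with 1 to 3 midpoints there and all windows; error bars are Wilson 95% intervals. The left bars stand at 81.4 to 93.5%, the middle bars at 29.3 to 45.2% and the right bars at 6.26 to 7.67%.

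The endosperm lists left the chosen windows empty more often than the seed lists, although each list was read on its own set of windows. The seed values moved when narrow ACRs were left out. With ACRs of at least 350 bp, the share was 90.1% at DAP20 and 77.2% at DAP15. The ACRs that did fall into windows empty in the 3 other lists were few and narrow. The endosperm lists placed 48 (DAP5) and 32 (DAP9) there and the seed lists 123 (DAP15) and 110 (DAP20), with at most 4 in a window. Their median width was 350 bp in each list, while all other ACRs had medians of 500, 650, 500 and 446 bp in the lists from DAP5 to DAP20. By the choice, the filling ACRs had no midpoint of another list in their window, and they were not compared with other single-list ACRs. Such narrow ACRs were common, since 26.5 to 48.1% of the ACRs that flanked no run were at most 350 bp wide. At DAP15, 350 bp was the smallest width. ACRs of windows with 1 to 3 ACRs in the list, flanks of runs left out, had medians of 500 bp in the first 3 lists and 350 bp at DAP20, so that at DAP20 the filling ACRs and those of sparse windows had the same median. At DAP20, 49.1% of them were under 350 bp, against 18.7% of the other ACRs. In the DAP9 and DAP15 lists 0% of the filling ACRs were under 350 bp, against 0.394% of the other ACRs in the DAP9 list and 0% in that of DAP15.

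Empty windows were spread unevenly over the 3 subgenomes. The A subgenome held 199 of 4929 windows (4.04%, 3.52 to 4.62%), the B subgenome 158 of 4263 (3.71%, 3.18 to 4.32%) and the D subgenome 73 of 3947 (1.85%, 1.47 to 2.32%). Averaged over chromosomes, this was 4.02 ± 1.5% in A (SD, n = 7 chromosomes), 3.69 ± 1.18% in B (n = 6) and 1.92 ± 1.31% in D (n = 7). The A homoeologue had the higher share than the D homoeologue in 7 of 7 groups, by 2.1 percentage points on average, and the B homoeologue in 6 of 6 groups, by 2.20 points. A exceeded B in 2 of 6 groups, with a mean difference of -0.14 points. These shares rest on the values that chose the windows, and no test was made. D chromosomes also held more midpoints per window, with medians from 24 (4D) to 31 (1D). In A and B the medians ran from 17 (6A) to 23 (1B). Chromosome 1B entered with its part above 240 Mb alone.

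In each list A and B stood above D. In A, 7.89 to 8.97% of windows were empty in a single list, and in B 6.5 to 8.35%, against 3.98 to 5.32% in D, and DAP15 had the lowest share in each subgenome. The windows empty in 3 lists were also read in the list left out by subgenome. At DAP5 the shares that stayed empty were 91.3% in A (86.8 to 94.3%, n = 218), 92.4% in B (87.4 to 95.5%, n = 171) and 91.2% in D (83.0 to 95.7%, n = 80). At DAP9 they were 92.1% in A (87.8 to 95%, n = 216), 94.0% in B (89.4 to 96.7%, n = 168) and 96.1% in D (89.0 to 98.6%, n = 76). D was the highest at DAP9 and the lowest in the other lists, with nearly the same share as A at DAP5. At DAP15 the shares were 84.7% in A (79.5 to 88.7%, n = 235), 81.0% in B (74.9 to 85.9%, n = 195) and 74.5% in D (65.0 to 82.1%, n = 98). At DAP20 they were 84.0% in A (78.8 to 88.1%, n = 237), 85.4% in B (79.6 to 89.8%, n = 185) and 76.0% in D (66.6 to 83.5%, n = 96). The intervals of the 3 subgenomes overlapped in each of the 4 lists.

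Among chromosomes, 4A had the highest share, with 51 of 744 windows (6.85%, 5.25 to 8.90%), followed by 3B with 44 of 830 (5.30%, 3.97 to 7.04%). The lowest share was on 2D, with 4 of 651 windows (0.614%, 0.239 to 1.57%), and 1D also held 4. The group 4 chromosomes used here, 4A and 4D, had the highest share of their subgenomes. With 23 of 509 windows (4.52%), 4D held 23 of the 73 empty windows of the D subgenome.

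**Figure D2:**
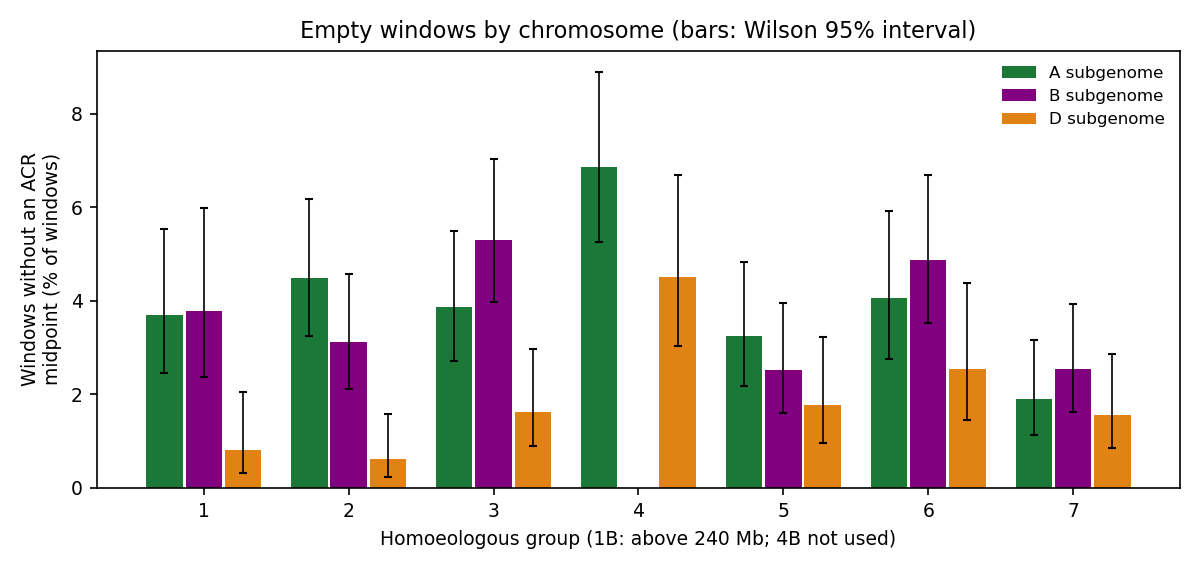
Share of 1 Mb windows without an ACR midpoint in any list (y axis, % of windows) for the A, B and D chromosomes of the 7 homoeologous groups (x axis); error bars are Wilson 95% intervals. The D bar is the lowest of each group, from 0.614% on 2D to 4.52% on 4D.

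Empty windows lay in the interior of the chromosomes, with exceptions. Within 10% of the length from the nearer end, 31 of 2597 windows were empty (1.19%, 0.842 to 1.69%), and between 10 and 20% 46 of 2611 (1.76%). Between 30 and 40%, 149 of 2642 windows were empty (5.64%, 4.82 to 6.59%), a higher share than the 4.66% of the innermost step from 40 to 50% (3.93 to 5.53%), although these 2 intervals overlapped. The median number of midpoints per window fell over the same steps, with 52 in the outermost and 15 in the innermost. The outer 20% at either end held 17.9% of the empty windows (77 of 430, 14.6 to 21.8%) and 39.6% of all windows. By subgenome, 21.6% of the empty windows were at the ends in A, 17.7% in B and 8.22% in D, the last being 6 windows.

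The place of the empty windows was also not symmetric. The first 30% of the chromosome lengths held 111 of them and the last 30% held 45. Without group 1, where part of 1B was left out, these numbers were 103 and 40. Cut into 10 equal parts, the chromosomes had the highest share of empty windows between 30 and 40% from the start, at 8.89% in A, 11.8% in B and 7.14% in D. On 19 of 20 chromosomes the median place lay in the first 50% of the length, between 30.1% on 5D and 49.9% on 7D, and 7A was the exception at 64.3%. Homoeologues were close in some groups and apart in others. In group 5 the medians were 35.2% on 5A, 34.7% on 5B and 30.1% on 5D, and in group 7 they were 64.3% on 7A, 47.9% on 7B and 49.9% on 7D.

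**Figure D3:**
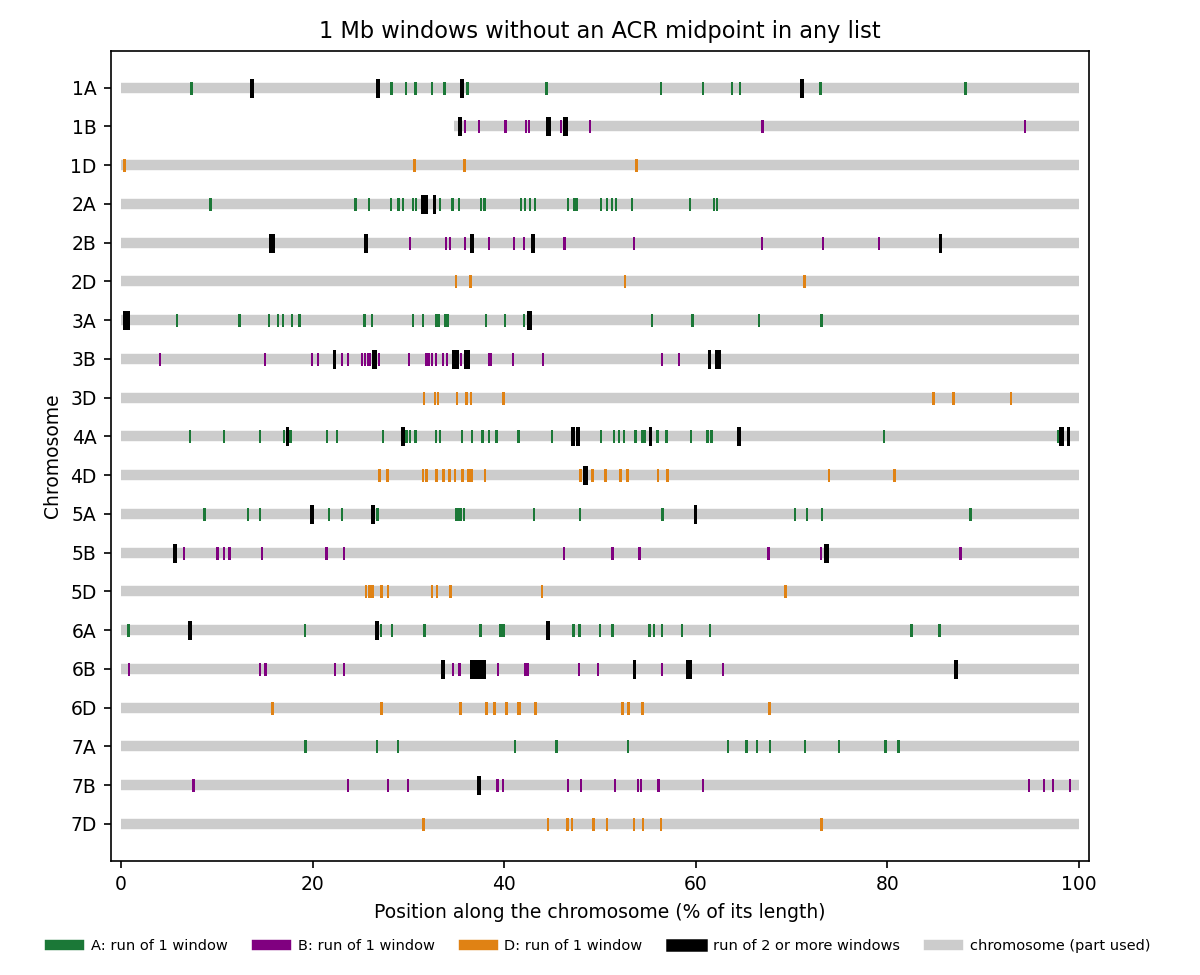
Place of the 430 empty windows along the 20 chromosomes (x axis, % of the length; the y axis names the chromosomes), with runs of 1 window in the colour of the subgenome and runs of 2 or more in black. Most marks lie between 20 and 60% of the length, the widest black mark is the run of 11 windows on 6B, and 3A, 4A, 6A, 6B, 7B and 1D carry marks within 20 Mb of an end.

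Neighbouring empty windows formed 356 runs, of which 309 were single windows and 47 had 2 or more. The longer runs held 121 windows, or 28.1% of the empty windows. They lay almost all in the A and B subgenomes, with 22 and 24 runs, while D, with more midpoints per window, had 1, on 4D. In B, 43.0% of the empty windows lay in runs of 2 or more, against 25.6% in A and 2.74% in D. On 7 chromosomes (1D, 2D, 3D, 5D, 6D, 7A and 7D) no empty window had an empty neighbour. The stretch without an ACR around a run had a median of 1.62 Mb, from 1.02 to 12.5 Mb.

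A part of the runs lay near each other. Of 336 pairs of neighbouring runs on a chromosome, 115 (34.2%) were at most 5 Mb apart, and 31 were separated by a single window. Within 20 Mb, 6B reached 12 empty windows (254000001 to 274000000), 3B reached 10 (282000001 to 302000000) and 2A reached 9 (236000001 to 256000000). On 1B and 4D the highest number was 7, and on 1D it was 1. The 10 windows on 3B were 4 runs of 2 windows and 2 single windows, whereas those on 6B included the longest run of all.

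The longest run covered 11 windows on 6B, from 263000001 to 274000000, at 37.2% of the length. The distance between the nearest ACRs on either side was 12.7, 12.5, 12.7 and 13.4 Mb in the lists from DAP5 to DAP20. It was the longest run in each list read alone, with 11 windows at DAP5, DAP9 and DAP15 and 12 at DAP20. On its left, the nearest locus was an ACR of 350 bp at DAP9 (262474300 to 262474649). On its right, a locus of 468 bp (274980799 to 274981266) was listed at DAP15 and DAP20, and the DAP5 and DAP9 lists resumed close to it, at 274984121 and 274983358. The right border was therefore nearly the same at all 4 stages, while the left one lay between 261531848 (DAP20) and 262474649 (DAP9). The 5 windows on either side held 37, 42, 37 and 33 ACRs from DAP5 to DAP20, or 14.9 midpoints per window over the lists. All windows of 6B had a mean of 28.8 and a median of 19.

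The next run covered 5 windows on 2A (244000001 to 249000000). Its ACR-free stretch was 5.96 Mb in both endosperm lists and 5.76 Mb in both seed lists. A locus found in every list (243859056 to 243859704) bordered it on the left. On the right, the seed lists had an ACR at 249619070 to 249619463 that the endosperm lists lacked, and the endosperm lists resumed at 249823495 and 249823404. The stretch was thus shorter at the seed stages by the distance between these ACRs.

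Of the 4 runs with 4 windows, that on 2B (124000001 to 128000000) was bordered on both sides by loci of DAP5 and DAP9 alone. Its stretch was 5.16 Mb in the DAP5 and DAP9 lists, 5.17 Mb in that of DAP15 and 5.31 Mb in that of DAP20. For the run on 3B (515000001 to 519000000), both bordering loci, 350 bp each, were found at DAP15 alone. There the stretch was 5.21 Mb at DAP15, against 6.53 Mb at DAP5, 6.62 Mb at DAP9 and 6.44 Mb at DAP20. On 6B (425000001 to 429000000), a DAP5 ACR of 500 bp stood on the left and a DAP15 ACR of 500 bp on the right, and the lists gave 6.06, 5.40, 5.39 and 6.07 Mb from DAP5 to DAP20. The run on 3A lay near the chromosome end and is given with the distal runs.

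In all, 13 runs had 3 or more windows, and 7 of them had exactly 3. On 1B, 306000001 to 309000000 was bordered by a locus of every list on the left (305542220 to 305543097), and its stretch was 3.62 Mb at DAP5 and DAP9 and 3.77 Mb at DAP15 and DAP20. Also on 1B, 318000001 to 321000000 had 4.95 and 4.98 Mb in the endosperm lists and 6.30 and 7.12 Mb in the seed lists. On 2B, 203000001 to 206000000 had 3.19 to 3.20 Mb in the 4 lists and a right border in every list (206109266 to 206110238). On 3A, 318000001 to 321000000 had 3.79 Mb in the DAP15 list and 4.42 to 4.44 Mb in the others, its left border being an ACR of DAP15 alone. On 3B, 218000001 to 221000000 had 4.41, 6.25, 4.20 and 4.20 Mb from DAP5 to DAP20, so that the DAP9 list alone stood apart. The runs of 3 windows on 4A and 5B were the longest of their chromosomes.

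On 4A (729000001 to 732000000), the stretch was 4.42 and 6.76 Mb in the endosperm lists and 7.30 and 7.31 Mb in the seed lists, the widest spread of the 13 runs. The right border was a locus of every list, and the shortest stretch ended on the left at a DAP5 ACR of 350 bp (728553495 to 728553844). On 5B (523000001 to 526000000) the lists gave 4.31 to 4.32 Mb, the narrowest spread of the 13. The runs were empty in all 4 lists by the rule, whereas the ACRs at their edges could belong to a single stage.

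**Figure D4:**
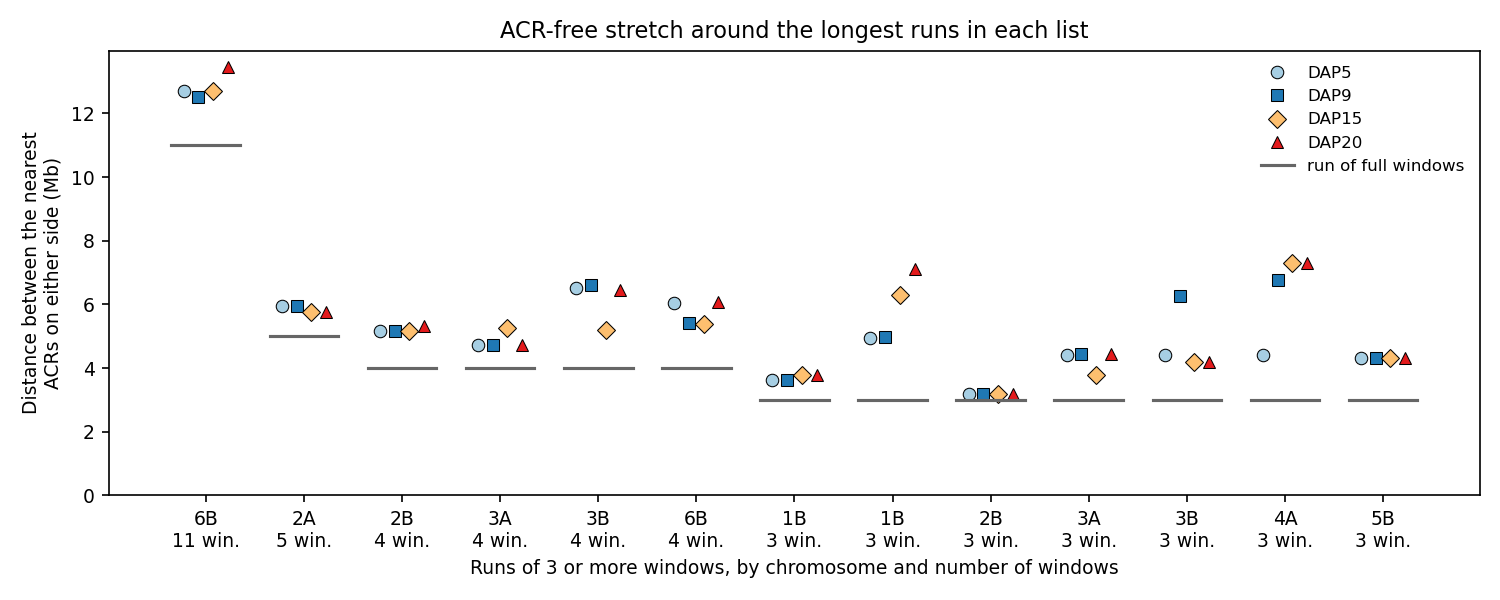
Distance between the nearest ACRs on either side (y axis, Mb) for the 13 runs of 3 or more empty windows (x axis), with a symbol for each list and a line at the length of the run. The run of 11 windows on 6B stands apart at 12.5 to 13.4 Mb, and the symbols spread most at the run on 4A, between 4.42 and 7.31 Mb.

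The longest run of the other chromosomes covered 2 windows on 1A, 4D, 5A, 6A and 7B, and 1 window on the rest. On 4D (246000001 to 248000000) the lists gave 3.57, 3.79, 3.44 and 3.84 Mb from DAP5 to DAP20. Some single windows were embedded in a much longer stretch at part of the stages. Around 144000001 to 145000000 on 5D, it was 6.88 Mb at DAP5 and 5.99 Mb at DAP9, but 1.56 Mb at DAP15 and 1.59 Mb at DAP20.

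Most runs lay in surroundings that were sparse themselves. The windows next to a run (712 sides, 681 windows) held 12 midpoints in the median and 15.8 on average over the 4 lists, against 31.7 in all windows with a midpoint. The average was also below that of windows with a midpoint in the same one of 10 equal parts of the chromosome, at 15.8 against 19.8, and 67.8% of the neighbouring windows lay below that average. At a distance of 10 windows, with empty ones left out, the averages were 19.2 and 20.1, and 58.6% of the windows still lay below. This step away from the run rests in part on leaving out empty windows, since a window next to a run cannot be empty. With empty windows counted, the averages were 15.8, 16.2, 15.8 and 16.2 at distances of 1 to 4 windows and 17.5 at 10. They were thus near level over the nearest windows. These values were not tested, since the rule used the same midpoints. Relative to all windows, the windows beside runs held 0.502, 0.507, 0.568 and 0.513 times as many ACRs in the lists from DAP5 to DAP20. The DAP15 list was thus the least depleted there, and gave 27.5% of the ACRs beside runs and 25.3% of those in all windows.

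In 75 of 356 runs (21.1%), the 5 windows on either side held on average at least as many midpoints as the chromosome's median window. A mean is here set against a median, and the counts are skewed, with a mean of 30.7 and a median of 22 over all windows. This raises the number of such runs, and the share for other places on the chromosomes was not computed. Of the runs in such surroundings, those below were named after their values were seen. The densest surroundings were those of 1D, 1000001 to 2000000, where the windows on the left and the right held 168 and 157 midpoints. The ACR-free stretch there measured 1.45 Mb in the DAP15 list and 1.47 Mb in the others. Its left edge was a locus of every list that reached 9350 bp in the DAP15 list (585787 to 595136). On 1B, 650000001 to 651000000 lay between windows of 94 and 50 midpoints, and its stretch was 1.61 Mb in each list. On 3D, 3 single windows at 521000001, 534000001 and 571000001 had surroundings of 55.6 to 58.0 midpoints per window. The chromosome had a mean of 36.3 and a median of 28.

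Within 20 Mb of a chromosome end there were 14 empty windows, and 4 of them formed a run on 3A (2000001 to 6000000). The window on its left held 72 midpoints and that on its right 5. Its left border was a locus of every list (1940115 to 1941514), and the stretch was 4.73 Mb at DAP5, DAP9 and DAP20 and 5.27 Mb at DAP15. At DAP15 no ACR was listed at the right-hand locus and the list resumed at 7212414. The other distal windows were 6 on 4A between 727000001 and 737000000, and 1 each on 1D, 6A, 6B and 7B. At the other extreme, the sparsest surroundings were on 3B, where 215000001 to 216000000 lay in 10 windows with 3.20 midpoints each on average. The chromosome had a mean of 25.8 and a median of 20 per window.

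The ACRs nearest to the runs were then compared with other ACRs in width, which the choice of windows did not use, and in presence across lists. Presence was not independent of the choice, since an ACR of a single list could fill a window or border a run. Differences were taken within each of 20 chromosomes and tested by sign-flip permutation with 100000 resamples, two-sided, with Benjamini-Hochberg adjustment over 12 tests. Chromosomes are not biological replicates. At DAP5, flanking ACRs (n = 688) were narrower than all others, with a difference of -0.22 in log2 width (SD 0.12), lower on 20 of 20 chromosomes (permutation test, adjusted p = 0.00036). At DAP9 the difference was -0.15 (SD 0.13), lower on 18 of 20 chromosomes (permutation test, adjusted p = 0.00036). At DAP15 and DAP20 it was -0.04 and -0.05, lower on 12 of 20 chromosomes each, and did not pass (permutation test, adjusted p = 0.502 and 0.165). For runs of 2 or more windows, on 13 chromosomes, the differences at DAP5 and DAP9 were -0.31 and -0.20 and did not pass (permutation test, adjusted p = 0.0674 and 0.108). From DAP5 to DAP20, flanking ACRs were 623, 677, 630 and 510 bp wide on average, against 757, 786, 665 and 541 bp for all other ACRs.

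No width difference passed the test against ACRs of windows with 1 to 3 ACRs in the list that flanked no run. Those ACRs averaged 635, 670, 590 and 484 bp from DAP5 to DAP20. The flanking ACRs were not limited to such windows. Windows beside runs held 3.75 to 4.40 ACRs per list on average, so that part of the flanks lay in denser windows. Against the ACRs of windows with 1 to 3, flanking ACRs differed in log2 width by -0.04, 0.01, 0.07 and 0.06 from DAP5 to DAP20. The SD over chromosomes was 0.13 to 0.20, and 0 of 4 permutation tests passed, while 1 had an unadjusted p under 0.05, at DAP20 (permutation p = 0.0483, adjusted 0.145). The DAP15 values held 1 outlying chromosome, 1D, whose flanks included the ACR of 9350 bp. Without 1D, the DAP15 difference was -0.08 against all others (permutation test, adjusted p = 0.0993). With windows cut from 500 kb instead, it was -0.10 and passed (permutation test, adjusted p = 0.0146).

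**Figure D5:**
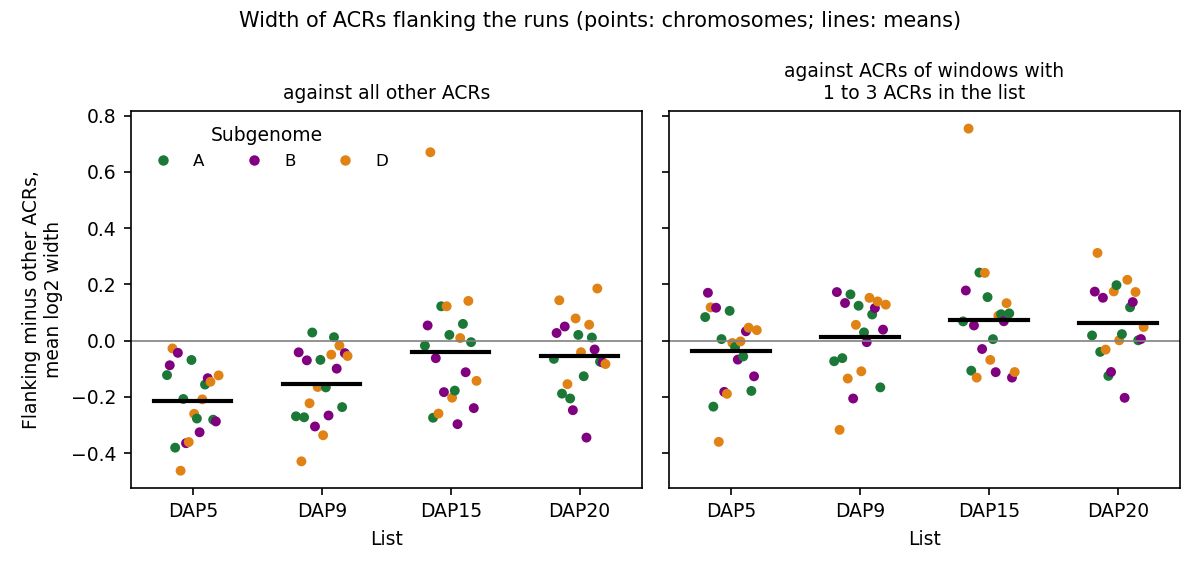
Difference in mean log2 width (y axis) between ACRs flanking the runs and all other ACRs (left) or other ACRs of windows with 1 to 3 ACRs (right), for the 4 lists (x axis); points are chromosomes and lines are means. On the left all 20 points of DAP5 and 18 of DAP9 lie below 0, on the right the means lie between -0.04 and 0.07, and the high DAP15 point is 1D.

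The 706 loci nearest to a run, obtained by merging ACRs of the 4 lists that overlapped by at least 1 bp, included 197 loci of every list (27.9%, 24.7 to 31.3%) and 263 loci of a single list (37.3%, 33.8 to 40.9%). All other loci were in every list in 24.0% of cases and in a single list in 40.8%. By chromosome, the share in every list differed by 2.85 percentage points from all others (SD 9.22, higher on 13 of 20 chromosomes, permutation test, adjusted p = 0.274). It differed by 2.64 points from other loci in windows with 1 to 3 loci (higher on 11 of 20, permutation test, adjusted p = 0.321). Single-list loci were less frequent at the runs than in such windows, with a difference of -5.65 points (SD 8.52, lower on 16 of 20 chromosomes, permutation test, adjusted p = 0.034). This call was lost with windows cut from 500 kb (-0.16 points), with ACRs merged within 500 bp (-3.45), for runs of 2 or more windows (-6.28) and without 1D (-5.05), with adjusted permutation p from 0.0650 to 0.946. It was kept for runs outside the outer 20% at either end, with -6.73 points (permutation test, adjusted p = 0.0370). The lower share of single-list loci thus depended on the setting. Flanking loci were also not limited to windows with 1 to 3 loci, unlike the loci they were set against. Since the choice of windows used presence in any list, these tests cannot separate a trait of the flanks from the choice.

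The stages were unequally represented among the flanking loci. From DAP5 to DAP20, an ACR was listed in 53.7, 53.8, 64.9 and 59.1% of them, against 58.0, 54.6, 55.4 and 53.9% of all other loci. Among other loci of windows with 1 to 3 loci the shares were 50.6, 52.9, 61.1 and 56.0%, in the same order of the lists. Of the 263 flanking loci in a single list, 109 belonged to DAP15, 81 to DAP20, 48 to DAP5 and 25 to DAP9. DAP15 was thus the most frequent list both at the runs and among other loci of sparse windows, and its share was not tested between them. The nearest locus was taken over all lists, so that a list filling sparse windows more often also supplies it more often by construction. These shares are therefore a description.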

How the data were processed

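ATAC-seq of AK58 grain was represented by 4 deposited lists of ACR coordinates (chromosome, start and end in bp, with no score or count), 1 per stage. As the study describes it, the authors used fastp for trimming (Trimmomatic 0.36 in the submitters' processing notes), aligned the reads with Bowtie2, removed duplicates with Picard and called peaks with MACS2. Bins of 150 bp above a density of Tn5 insertions were merged, and blacklisted or organelle-like peaks were removed. The density minimum, the genome build, any pooling of replicates and the handling of reads with several matches, on which ACRs in repeats depend, were not given in the sources used here. Read numbers were not analysed here and the depth is unknown.

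The largest ACR end stood in for the chromosome length, and the last partial window was dropped. Coordinates are given from base 1. The gene table at hand is of IWGSC CS RefSeq v2.1. Of the ACR midpoints, 3.63% lay within 1 kb of an edge of its protein-coding genes, and 3.49 and 3.55% after a shift of the genes by 100 kb either way, so that it was not used, and genes, GC content, unknown bases and sequences were not analysed here.

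Flanking ACRs were those nearest to a run on either side in each list. The rule named the 10 longest runs (ties by chromosome name, then start), the longest of each chromosome and extremes of a measure. Since 7 runs tied at 3 windows, all 13 runs of 3 or more windows are given. Others were named after their values were seen. Members, lists and tests were chosen with earlier results of these data known. The alternatives were other window starts and sizes, overlap in place of midpoints, a minimum width of 350 bp, the 50000 widest ACRs, each list left out, the left-out parts kept, runs of at least 2 windows, runs outside the outer 20% at either end, leaving out 1D and merging within 500 bp. The work was done in Python 3.11.15 with pandas 2.3.3, numpy 2.4.6, matplotlib 3.10.9 and scipy 1.17.1, and the scripts were tested on simulated data.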

Additional observations from a re-analysis of the deposited data

How the results depend on the processing

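No paired analysis was possible because the 2 records of a stage share a single list, so that replicates could not be left out either. Alternatives not run were those with chromosome lengths, genes, GC content or unknown bases, for which no reference of the lists' build was used. Chosen after seeing the data were the count of stretches without a grid, the place of runs of 2 or more windows, runs outside the outer 20% at either end, and leaving out 1D.

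The number of empty windows was 396 with windows from 500 kb and 460 to 528 with a list left out, and the longest run had 11 or 12 windows under each of these. It was 1201 with the 50000 widest ACRs (929 runs), 674 with 1B below 240 Mb and 4B kept, 3277 with windows of 500 kb and 39 with windows of 2 Mb. Without a grid, 938 stretches of at least 1 Mb separated neighbouring midpoints, and 582 of them held no full window. The fixed grid thus found a part of such stretches. With that part of 1B and 4B kept, the longest run had 30 windows and 30.1% of the empty windows lay at chromosome ends, against 17.9%. For runs of 2 or more windows this share was 22.3%.

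With the 50000 widest ACRs of each list, 2952, 2633, 2432 and 2722 windows were empty in the lists from DAP5 to DAP20. Under a width minimum of 350 bp, these numbers were 1083, 952, 823 and 1357. Under that minimum, 91.0, 91.8, 77.2 and 90.1% of the chosen windows stayed empty in the list left out, from DAP5 to DAP20. Fewer ACRs leave more windows empty by construction.

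In runs of 2 or more windows, flanking ACRs differed from all others by -0.31 at DAP5 and -0.20 at DAP9 in log2 width, without passing the threshold (adjusted permutation p = 0.0674 and 0.108), over 13 chromosomes. Against sparse windows the differences changed sign to -0.0206 at DAP9 and -0.0816 at DAP15. The share of flanking loci in every list then changed sign to -0.83 points against all others and -1.38 against sparse windows. With windows from 500 kb, flanking ACRs at DAP15 differed from all others by -0.10 (adjusted permutation p = 0.0146), and the single-list share changed sign to 0.88 points against all others. Against sparse windows, the single-list share did not pass with windows from 500 kb (-0.16 points), with merging within 500 bp (-3.45), for runs of 2 or more windows (-6.28) and without 1D (-5.05), and passed for runs outside the outer 20% at either end (-6.73, adjusted permutation p = 0.0370). The cause was not tested. Of 52 recalculations on flanks, 40 kept their direction and their side of the threshold, and 6 lost a call. Those 6 were of results that had passed, while most of the 40 were of results that had not.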

Other observations

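The parts left out of the windows differed from each other. On 1B below 240 Mb, 215 of 240 windows (89.6%) held no midpoint in any list, and the remaining windows held 54 midpoints in all. On 4B, 29 of 673 windows (4.31%) were empty.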
